A study of Mus musculus with 12 samples.

Results

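The JAK, STAT and SOCS genes carry cytokine signals from the cell surface to the nucleus, and 10 of them were followed here through the lungs of mice given PBS or CRE: the kinase genes *Jak1*, *Jak2* and *Jak3*, the transcription factor genes *Stat3*, *Stat5a*, *Stat5b* and *Stat6*, and the inhibitor genes *Socs1*, *Socs3* and *Cish*. They were chosen by symbol, with earlier results of these data known. All 10 were found among the 54532 gene identifiers of the count table, and all 10 were among the 17473 genes with enough counts to be tested. Cytokine receptors have no kinase of their own and hold JAK kinases on their inner tails. When a cytokine brings the receptor chains together, the JAKs phosphorylate the tails and the STAT proteins that dock there, and STAT dimers then enter the nucleus and bind DNA. SOCS proteins and CISH are switched on by STATs and act back on the receptor and the kinases, so their RNA is often read as a trace of recent signalling. In allergic airways the best known branch is that of IL-4 and IL-13, which use JAK1 with other JAKs and activate STAT6. Transcript levels do not measure phosphorylation of any of these proteins.

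The 10 genes lie as follows on GRCm38. *Jak1* (ENSMUSG00000028530) spans chr4:101152367-101265282, *Jak2* (ENSMUSG00000024789) chr19:29251828-29313080 and *Jak3* (ENSMUSG00000031805) chr8:71676296-71690575. *Stat6* (ENSMUSG00000002147) spans chr10:127642986-127660957, while *Stat5b* (ENSMUSG00000020919) at chr11:100780731-100850724, *Stat5a* (ENSMUSG00000004043) at chr11:100859351-100885169 and *Stat3* (ENSMUSG00000004040) at chr11:100885098-100939540 lie in a row. *Socs3* (ENSMUSG00000053113) spans chr11:117966079-117970047, *Socs1* (ENSMUSG00000038037) chr16:10782240-10785536 and *Cish* (ENSMUSG00000032578) chr9:107296026-107302784.

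Whole lung was sequenced from 4 groups of 3 libraries. CKO_CRE and CKO_PBS mice were Cc10-Cre;Rhoafl/fl and were given CRE or PBS, and WT_CRE and WT_PBS mice were Cc10-Cre with the same treatments. CRE is kept as the labels write it, since they do not expand it, and it is not the Cre recombinase, which all 4 groups carry under the Cc10 promoter of airway club cells. No group without Cre was analysed, the labels give no age, and all libraries share 1 batch number. Nothing in the labels says that libraries of a group came from separate animals, so p-values measure the spread between these libraries.

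Library totals ran from 16250674 to 21559210 counts. Markers of alveolar epithelium summed to 18627 CPM (counts scaled to a common library total) or more in every library, and the labelled tissue is lung. The targeted gene *Rhoa* had 465, 544 and 495 CPM in CKO_CRE, 523, 531 and 521 in WT_CRE, 469, 398 and 481 in CKO_PBS and 488, 471 and 485 in WT_PBS, and no genotype difference was called under CRE (log2 -0.07 ± 0.10, adjusted p = 0.728) or PBS (-0.10 ± 0.10, adjusted p = 1). Whole lung includes all cells without Cc10, so this level does not check the labels. CKO_CRE replicate 2 stood apart from its group. On principal component 1, which held 64.4% of the variance, the CKO_CRE libraries scored 10.1, 82.6 and 31.2, against 71.6 to 84.7 in WT_CRE. By Y-linked counts set against *Xist* counts, CKO_CRE replicates 2 and 3, WT_CRE replicates 2 and 3 and CKO_PBS replicate 2 were female and the other libraries male. Sex was therefore not balanced between CRE and PBS, and all WT_PBS libraries were male. With sex as a covariate, genes called for CRE against PBS went from 6830 to 5798 in CKO lungs and from 9959 to 7934 in WT lungs.

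The promoters of the 3 inhibitor genes are shown because these genes are known feedback targets of STATs and because all 3 rose with CRE. STAT dimers prefer palindromes of the form TTCNNNGAA, with STAT6 favouring a spacing of 4 bases between TTC and GAA. Each sequence runs 5′ to 3′ from 250 bases before to 50 bases after the RefSeq start of the gene (GRCm38.p6), and capitals mark matches of TTCNNNGAA. The *Cish* window is chr9:107296409-107296708 on the plus strand, the *Socs3* window chr11:117969317-117969616 on the minus strand and the *Socs1* window chr16:10785487-10785786 on the minus strand.

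Cish: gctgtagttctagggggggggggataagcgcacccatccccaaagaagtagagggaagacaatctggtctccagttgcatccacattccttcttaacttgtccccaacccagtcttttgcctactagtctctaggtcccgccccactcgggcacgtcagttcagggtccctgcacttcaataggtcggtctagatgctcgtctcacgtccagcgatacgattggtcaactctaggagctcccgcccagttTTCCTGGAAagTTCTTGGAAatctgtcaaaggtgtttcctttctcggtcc

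Socs3: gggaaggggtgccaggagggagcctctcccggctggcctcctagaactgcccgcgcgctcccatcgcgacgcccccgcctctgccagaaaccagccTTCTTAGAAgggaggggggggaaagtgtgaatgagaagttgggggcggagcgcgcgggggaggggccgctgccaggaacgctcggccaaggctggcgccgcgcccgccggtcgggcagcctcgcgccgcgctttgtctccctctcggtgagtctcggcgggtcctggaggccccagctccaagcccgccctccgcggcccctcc

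Socs1: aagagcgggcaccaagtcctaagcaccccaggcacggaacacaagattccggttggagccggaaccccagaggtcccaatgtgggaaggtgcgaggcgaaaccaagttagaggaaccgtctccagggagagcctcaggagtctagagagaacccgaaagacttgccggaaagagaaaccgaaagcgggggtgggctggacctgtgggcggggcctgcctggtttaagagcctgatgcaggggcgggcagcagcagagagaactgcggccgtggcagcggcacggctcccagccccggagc

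*Cish* held 2 matches, at positions 1 and 12 counted from the start, and *Socs3* held 1, 154 bases upstream. No match lay in the *Socs1* window or in those of the 7 kinase and STAT genes, and none of the 10 held the motif with 4 bases between TTC and GAA. Both motifs read the same on either strand. Across all 32851 promoters of the table, 8.3% held TTCNNNGAA, 0.457% held it at least 2 times, and 6.95% held the motif with the spacing of 4. The RefSeq starts of *Cish* and *Socs3* lie inside the longer GENCODE genes, and so do the matches of both. A match is a description of the letters in the window and not a bound site.

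The inhibitor genes rose with CRE in both genotypes, and *Socs1* had the largest change of the 10. *Socs1*, whose protein blocks JAK kinases directly, had 18.6, 37.3 and 25.5 CPM in CKO_CRE against 3.98, 5.40 and 3.89 in CKO_PBS, and 52.0, 61.1 and 31.0 CPM in WT_CRE against 4.35, 6.09 and 4.01 in WT_PBS. Every CRE library was above every PBS library of its genotype. The log2 fold change was 2.61 ± 0.31 in CKO lungs (95% interval 1.94 to 3.28, adjusted p = 0.000174) and 3.31 ± 0.31 in WT lungs (2.63 to 3.99, adjusted p = 1.61e-05), both by edgeR's quasi-likelihood test. As in any whole tissue, a smaller number of cells of one type cannot be told apart from less RNA in each of them, and likewise for rises.

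*Socs3*, the inhibitor tied to gp130 receptors and STAT3, had 147, 197 and 121 CPM in CKO_CRE against 62.8, 118 and 60.3 in CKO_PBS. In WT lungs it had 162, 191 and 154 CPM under CRE against 52.3, 46.5 and 42.4 under PBS. The groups did not overlap in either genotype, but CKO_PBS replicate 2 came within a few CPM of the lowest CKO_CRE library. *Socs3* rose by log2 0.95 ± 0.24 in CKO lungs (adjusted p = 0.00936) and by 1.84 ± 0.25 in WT lungs (adjusted p = 0.000114). Its rise in CKO lungs was 1.33 without CKO_PBS replicate 2, and fitting only the CKO groups gave 0.96 with an adjusted p of 0.0541.

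*Cish*, a classic STAT5 target whose protein competes for STAT5 docking sites, had 52.2, 47.4 and 34.6 CPM in CKO_CRE against 22.1, 33.3 and 20.9 in CKO_PBS. It had 63.6, 73.5 and 59.7 CPM in WT_CRE against 30.0, 34.4 and 29.8 in WT_PBS. All WT_CRE libraries were well above the PBS libraries, whereas CKO_CRE replicate 3 was close to CKO_PBS replicate 2. The rise was log2 0.82 ± 0.19 in CKO lungs (adjusted p = 0.00544) and 1.06 ± 0.18 in WT lungs (adjusted p = 0.000539). *Cish* shares exon bases with *Gm17040* and *Gm17041* on the opposite strand, which had at most 0.909 and 0 CPM, so its counts carry that small uncertainty.

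**Figure D1:**
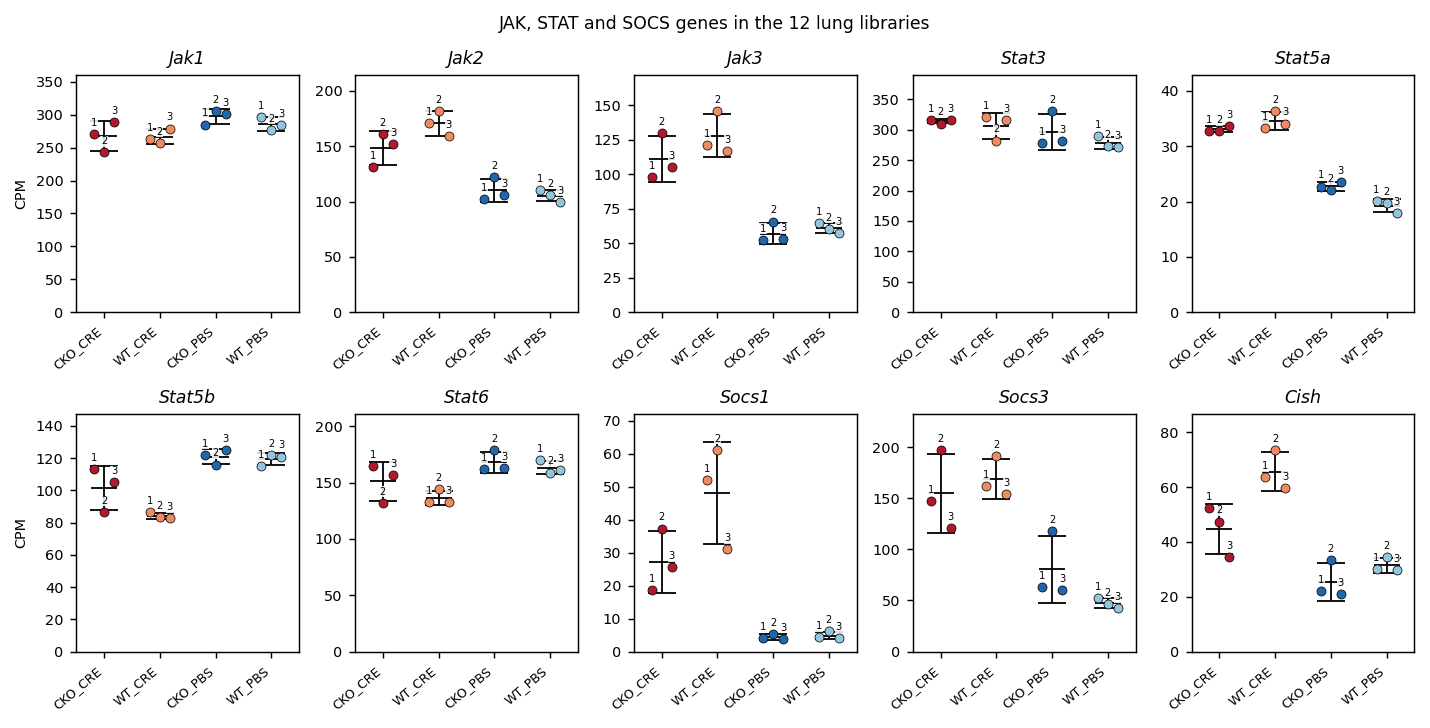
CPM of the 10 genes in each library (numbered points), with the mean and SD of each group of 3 (bars), from a y axis starting at 0. *Socs1*, *Socs3*, *Cish*, *Jak2*, *Jak3* and *Stat5a* lie higher in the CRE groups, and *Stat5b* is lowest in WT_CRE, at 82.6 to 86.4 CPM.

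Among the kinases, *Jak3* and *Jak2* rose and *Jak1* did not pass. *Jak3*, which pairs with the common gamma chain of lymphoid cytokine receptors and is made mostly in blood cells, had 97.9, 130 and 105 CPM in CKO_CRE against 52.6, 65.7 and 52.8 in CKO_PBS. In WT lungs *Jak3* had 121, 146 and 117 CPM under CRE against 64.7, 60.5 and 57.6 under PBS. Its CRE and PBS libraries did not overlap in either genotype. The rise was 1.94-fold in CKO lungs (log2 0.96 ± 0.13, adjusted p = 0.00033) and 2.1-fold in WT lungs (log2 1.07 ± 0.13, adjusted p = 6.1e-05). *Jak2*, the kinase of the growth hormone, GM-CSF and IL-3 receptors, had 131, 161 and 152 CPM in CKO_CRE against 102, 122 and 106 in CKO_PBS. Its WT values were 171, 182 and 159 CPM under CRE against 110, 106 and 99.8 under PBS. The CRE libraries were above the PBS libraries throughout, with *Jak2* rising by log2 0.42 ± 0.10 in CKO lungs (adjusted p = 0.00671) and 0.70 ± 0.10 in WT lungs (adjusted p = 0.000174).

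*Jak1*, the widely used partner kinase of most cytokine receptors, ranged from 243 to 289 CPM in CKO_CRE against 285 to 306 in CKO_PBS, and from 257 to 279 in WT_CRE against 277 to 297 in WT_PBS. These ranges overlapped, and the log2 changes of -0.16 (95% interval -0.34 to 0.03) in CKO and -0.10 (-0.29 to 0.08) in WT did not pass (adjusted p = 0.168 and 0.327). *Jak3* shares 404 exon bases with *Insl3* on the same strand, which had at most 3.56 CPM.

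*Stat5a* and *Stat5b*, neighbours on chromosome 11 that lie 8627 bases apart and encode closely similar factors downstream of IL-2, GM-CSF, prolactin and growth hormone, moved in opposite directions in WT lungs. *Stat5a* had 32.8, 32.7 and 33.7 CPM in CKO_CRE against 22.7, 22 and 23.5 in CKO_PBS, and 33.2, 36.4 and 34.1 CPM in WT_CRE against 20.1, 19.7 and 17.9 in WT_PBS. *Stat5b* had 113, 86.5 and 105 CPM in CKO_CRE against 122, 116 and 125 in CKO_PBS, and 86.4, 83.3 and 82.6 CPM in WT_CRE against 115, 122 and 121 in WT_PBS. Neither gene's groups overlapped. *Stat5a* rose by log2 0.54 ± 0.08 in CKO lungs (adjusted p = 0.000652) and 0.84 ± 0.08 in WT lungs (adjusted p = 1.92e-05). *Stat5b* fell in WT lungs (log2 -0.51 ± 0.09, adjusted p = 0.000764). In CKO lungs its change of -0.25 ± 0.09 was just outside the threshold (adjusted p = 0.0502), and it was called without CKO_CRE replicate 1 (-0.33, adjusted p = 0.0142), with the replicate number as a block (adjusted p = 0.0463), and by DESeq2 (0.0444) and limma-voom (0.0123). Without CKO_CRE replicate 2 the change was smaller (-0.14, adjusted p = 0.124), and it was also not called with sex as a covariate (-0.21, 0.0936) or without CKO_PBS replicate 2 (-0.28, 0.0685). No alternative beyond the 4 that called it did so. As CPM per kilobase of exon, the *Stat5b* level was 3.96 ± 0.522 times that of *Stat5a* in CKO_CRE, 3.14 ± 0.204 times in WT_CRE, 6.84 ± 0.0575 times in CKO_PBS and 8.02 ± 0.66 times in WT_PBS (SD, n = 3), a ratio chosen after the values were seen and so given with no test. Those exons cover all annotated transcripts, 5539 bases for *Stat5b* and 7133 for *Stat5a*, so the size of the ratio depends on these lengths. *Stat5a* and *Stat3* overlap by 72 exon bases on opposite strands.

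*Stat6*, the factor of IL-4 and IL-13 signalling, and *Stat3*, that of IL-6 and IL-10, moved least among the STATs. *Stat6* had 165, 132 and 157 CPM in CKO_CRE against 162, 179 and 163 in CKO_PBS, and 133, 144 and 133 CPM in WT_CRE against 170, 159 and 161 in WT_PBS. Its groups overlapped in CKO lungs (log2 -0.15 ± 0.09, adjusted p = 0.226) and not in WT lungs, where it fell by 0.26 on the log2 scale (SE 0.09, adjusted p = 0.0331). That call was lost without WT_CRE replicate 1 (adjusted p = 0.0959) or 3 (0.0856), without WT_PBS replicate 1 (0.102), 2 (0.0538) or 3 (0.0616), with sex as a covariate (0.0829) and without the low-count filter (0.101). *Stat3* ranged from 310 to 316 CPM in CKO_CRE against 278 to 331 in CKO_PBS, and from 282 to 320 in WT_CRE against 271 to 289 in WT_PBS. Both pairs of ranges overlapped, and its changes of 0.08 (95% interval -0.12 to 0.28) in CKO and 0.14 (-0.06 to 0.34) in WT did not pass (adjusted p = 0.497 and 0.208). With limma-voom the WT change of *Stat3* was called (0.17, adjusted p = 0.022).

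Of the 10 genes, 6 rose and 0 fell with CRE in CKO lungs, and 6 rose and 2 fell in WT lungs. The 6 that rose were the same in both. Over all genes tested, 39.1% were called in CKO lungs, 20.6% higher and 18.5% lower. In WT lungs 57% of all genes were called, 28.6% higher and 28.4% lower. The median log2 change of the 10 was 0.48 in CKO lungs, against 0.00 over all genes, and 0.77 in WT lungs, against 0.01. At an unadjusted p below 0.05, 7 of the 10 passed in CKO lungs, against 49% of all genes, and 8 in WT lungs, against 62%. The CRE and PBS libraries did not overlap for 7 of the 10 in CKO lungs, against 49% of all genes, and for 8 in WT lungs, against 68.5%. Without CKO_CRE replicate 2 the counts were again 6 and 0 in CKO lungs (29.9% of all genes called, member median 0.45) and 6 and 2 in WT lungs (60.6%). DESeq2 called 7 of the 10 in CKO lungs (36.4% of all genes) and 8 in WT lungs (45.4%), and limma-voom 7 (45.9%) and 9 (69.1%).

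**Figure D2:**
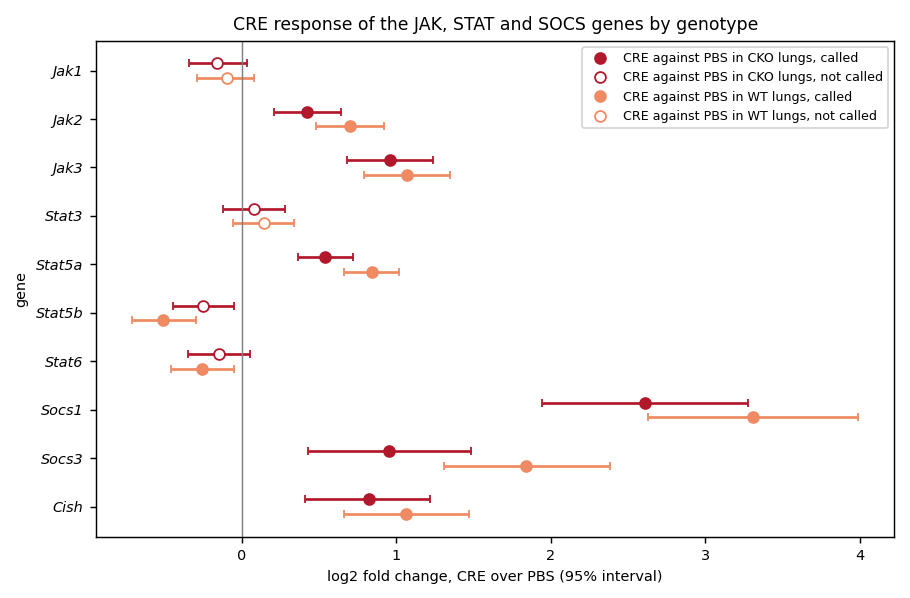
Log2 fold change of CRE over PBS with its 95% interval (x axis) for each gene (y axis), CKO lungs above WT lungs, with filled points for genes called at an adjusted p below 0.05. *Socs1* lies farthest right, at 2.61 in CKO and 3.31 in WT, and *Stat5b* farthest left, at -0.25 and -0.51.

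Markers of cell types also differed between CRE and PBS, to an extent that varied with the cell type and genotype. The 8 leukocyte markers summed to 1694 to 3242 CPM in CKO_CRE against 1117 to 1498 in CKO_PBS, and to 2584 to 2866 in WT_CRE against 1099 to 1230 in WT_PBS, and 7 of 8 rose in each genotype. The 8 macrophage markers summed to 1143 to 2327 CPM in CKO_CRE against 423 to 517 in CKO_PBS, and to 1938 to 2154 in WT_CRE against 431 to 525 in WT_PBS, with 7 of 8 rising in each. The 8 T cell markers summed to 95.8 to 185 CPM in CKO_CRE against 71.8 to 135 in CKO_PBS, and to 202 to 225 in WT_CRE against 73.7 to 100 in WT_PBS, and 2 rose in CKO lungs and 7 in WT lungs. Of the 8 endothelial markers 5 fell in CKO lungs and 7 in WT lungs, and they summed to 1769 to 2684 CPM in CKO_CRE against 3395 to 3941 in CKO_PBS, and to 1800 to 2045 in WT_CRE against 3591 to 3758 in WT_PBS. Of the 7 B cell markers, 1 rose in CKO lungs and 7 in WT lungs. Of 6 eosinophil markers (*Epx* was not tested), 3 rose in CKO lungs and 4 in WT lungs, and of 7 neutrophil markers (*Ly6g* was not tested), 1 and 6. Of 7 airway epithelium markers, 5 fell in CKO lungs, where they summed to 778 to 1675 CPM in CKO_CRE against 3205 to 4067 in CKO_PBS, and 6 fell in WT lungs, at 773 to 803 CPM in WT_CRE against 4870 to 5067 in WT_PBS. Of 8 alveolar epithelium markers, 4 fell and 1 rose in each genotype. Beside these counts, 20.6% of all genes were called higher and 18.5% lower in CKO lungs. In WT lungs the shares were 28.6% and 28.4%, so some marker counts were near those of all genes. Without CKO_CRE replicate 2, the markers that rose in CKO lungs numbered 0 for T cells, 0 for B cells, 6 for leukocytes and 7 for macrophages. In that setting 29.9% of all genes were called, in either direction. The median log2 change of the tested neutrophil markers was -0.02 in CKO lungs, -0.63 without that replicate, and 1.82 in WT lungs. Within CKO_CRE, replicate 2 had the highest leukocyte, macrophage and T cell sums, and also the highest *Socs1*, *Socs3*, *Jak2* and *Jak3* and the lowest *Stat5b*, *Stat6* and *Jak1*. *Cish* was highest in replicate 1 (52.2 CPM, against 47.4 and 34.6 in replicates 2 and 3). *Stat3* and *Stat5a* were lowest in replicate 2 but spanned only 310 to 316 and 32.7 to 33.7 CPM. *Krt5*, an airway basal cell marker that was not tested, was at 0 in CKO_CRE and WT_PBS, and none of the other markers was at 0 in a whole group. Their part in the changes of the JAK, STAT and SOCS genes was not tested.

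Levels between genes were compared as CPM per kilobase of exon. Under PBS the order was led by *Jak1* (41.2 ± 1.52 in CKO_PBS and 39.6 ± 1.38 in WT_PBS) and *Stat6* (38.1 ± 2.23 and 37.1 ± 1.41), which overlapped, and ended with *Socs1* (1.52 ± 0.292 and 1.66 ± 0.385). Under CRE *Socs3* led (53.7 ± 13.3 in CKO_CRE and 58.5 ± 6.77 in WT_CRE), above *Jak1* (37.0 ± 3.18 and 36.9 ± 1.55) with no overlap. *Stat5a* was last under CRE, at 4.63 ± 0.0778 and 4.85 ± 0.237. In WT_CRE *Jak1*, *Jak2* and *Stat3* each overlapped the next in order, *Jak2*, *Stat3* and *Stat6*. *Socs1* and *Stat5b* overlapped in WT_CRE, as did *Socs1* and *Cish* in CKO_CRE. The exons of every gene are counted over all annotated transcripts, which lowers the value per kilobase where that total is long. *Cish* (6419 bases), *Stat5a* (7133), *Jak1* (7227) and *Stat3* (9527) have long totals, so the order of the genes depends on these lengths.

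Of the other JAK, STAT and SOCS family genes, 8 are given here, and they were split. *Stat2*, a factor of type I interferon signalling, had 116, 127 and 214 CPM in CKO_CRE against 79.3, 77.7 and 72.2 in CKO_PBS, and 91.1, 95.3 and 89.0 CPM in WT_CRE against 66.6, 70.9 and 73.7 in WT_PBS. It rose in CKO lungs (log2 0.99 ± 0.18, adjusted p = 0.00166), and the WT change of 0.38 ± 0.18 did not pass (adjusted p = 0.0853) but was called without CKO_CRE replicate 1 (0.0472) or 3 (0.00184), by limma-voom (0.0211) and when only the WT groups were fitted (0.000731). *Stat4*, the factor of IL-12 signalling, rose in WT lungs to 6.84 ± 1.42 CPM, against 3.35 ± 0.754 in WT_PBS (SD, n = 3; log2 1.03 ± 0.25, adjusted p = 0.00412).

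*Socs4*, *Socs5* and *Socs7* fell in both genotypes, by 0.56, 0.49 and 0.59 on the log2 scale in CKO lungs (adjusted p = 0.00277, 0.00294 and 0.00763) and by 0.45, 0.43 and 0.81 in WT lungs (adjusted p = 0.00477, 0.00318 and 0.000603). *Socs7*, for example, was at 47.2 ± 10.8 CPM in CKO_CRE against 70.9 ± 6.0 in CKO_PBS and 42.5 ± 3.66 in WT_CRE against 74.6 ± 1.03 in WT_PBS. *Socs2*, a brake on growth hormone signalling, had 115, 105 and 109 CPM in CKO_CRE against 127, 126 and 130 in CKO_PBS, and fell by 0.22 on the log2 scale (adjusted p = 0.0391). That call was lost in 11 of its alternatives (adjusted p from 0.0534 to 0.205), among them without CKO_CRE replicate 2 (0.0817) or 3 (0.0826) and without any 1 of the 6 PBS libraries. In WT lungs *Socs2* had 152, 132 and 132 CPM under CRE against 120, 126 and 128 under PBS and did not pass (log2 0.16 ± 0.08, adjusted p = 0.106), though it was called with sex as a covariate (0.0436) and by limma-voom (0.00385). *Tyk2* and *Socs6* did not pass in either genotype. In all, 1 of the 8 rose and 4 fell in CKO lungs, and 1 rose and 3 fell in WT lungs. Here and for the lists that follow, the shares of all genes called were 39.1% in CKO lungs (20.6% higher, 18.5% lower) and 57% in WT lungs (28.6% higher, 28.4% lower). *Stat4* shares exon bases with *Gm28177* on the same strand, so its values are uncertain.

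About as many cytokine genes, the ligands of the pathway, rose as did not pass. Of 21 listed, 17 were tested (*Il2*, *Il3*, *Il9* and *Il22* were too low), 9 rose, 0 fell and 8 did not pass in CKO lungs, and 9 rose and 1 fell in WT lungs. *Il13*, which signals to airway epithelium through STAT6, had 2.76, 4.27 and 2.18 CPM in CKO_CRE against 0, 0.185 and 0 in CKO_PBS, and 12.3, 16.3 and 10.1 CPM in WT_CRE against 0.101, 0.101 and 0.177 in WT_PBS (adjusted p = 0.000145 in CKO and 8.58e-06 in WT). *Il6*, a main activator of STAT3, had 1.80, 4.62 and 1.65 CPM in CKO_CRE against 0.103, 1.57 and 0.432 in CKO_PBS, and 5.17, 5.14 and 5.56 CPM in WT_CRE against 0.202, 0.201 and 0.295 in WT_PBS. The WT groups of *Il6* were far apart and the CKO groups nearly met. *Il6* rose by log2 4.48 ± 0.72 in WT lungs (adjusted p = 0.000349). Its rise in CKO lungs (1.91 ± 0.62, adjusted p = 0.03) was lost without CKO_CRE replicate 2 (1.26, adjusted p = 0.143), CKO_PBS replicate 1 (0.069) or CKO_PBS replicate 3 (0.104), and with only the CKO groups fitted (0.117). The rise of *Il6* in CKO lungs was 3.27 without CKO_PBS replicate 2. *Osm*, the gp130 cytokine oncostatin M, rose by 1.60 ± 0.32 in CKO lungs (adjusted p = 0.00287) and 2.81 ± 0.34 in WT lungs (adjusted p = 6.19e-05). In CKO lungs 7 ligands rose without CKO_CRE replicate 2. *Il4*, named here after its values were seen, had 1.91 ± 0.451 CPM in CKO_CRE against 1.7 ± 0.577 in CKO_PBS and was not called there. In WT lungs *Il4* rose, at 3.93 ± 1.05 CPM under CRE against 2.12 ± 0.608 under PBS. That call was lost without WT_CRE replicate 1 (adjusted p = 0.0746) or 2 (0.129) and without WT_PBS replicate 1 (0.123) or 2 (0.0883). It was also lost with the replicate block (0.0507).

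Receptor genes were all tested, and 16 of 31 rose and 4 fell in CKO lungs, against 20 and 5 in WT lungs. *Il13ra2*, the IL-13 decoy receptor, had 2.22, 6.90 and 2.65 CPM in CKO_CRE against 0.0517, 0.277 and 0 in CKO_PBS, and 18.1, 15.4 and 11.5 CPM in WT_CRE against 0.152, 0 and 0 in WT_PBS (adjusted p = 0.000565 in CKO and 2.28e-05 in WT). The chains that bind IL-4 are named here after their values were seen. *Il4ra* had 230, 319 and 194 CPM in CKO_CRE against 183, 174 and 183 in CKO_PBS, and 333, 308 and 322 CPM in WT_CRE against 155, 156 and 149 in WT_PBS. The WT groups were far apart (log2 1.07 ± 0.14, adjusted p = 0.000118), while 2 of 3 CKO_CRE libraries were only slightly above CKO_PBS (0.46 ± 0.14, adjusted p = 0.0232, lost without CKO_PBS replicate 1 (0.053), 2 (0.0665) or 3 (0.0604), by limma-voom (0.15, adjusted p = 0.141), and with only the CKO groups fitted (0.105)). *Il2rg*, the common gamma chain that holds JAK3, rose by 0.84 ± 0.17 in CKO lungs (adjusted p = 0.00328) and 1.14 ± 0.17 in WT lungs (adjusted p = 0.000245). A further listed chain, *Il13ra1*, had 67.7 to 82.8 CPM in CKO_CRE against 58.9 to 77.1 in CKO_PBS. In WT lungs *Il13ra1* had 60.9 to 80.8 CPM under CRE against 63 to 66.8 under PBS. Both pairs of its ranges overlapped. The genes that fell in both were *Il6ra*, *Ifngr1*, *Ghr* and *Lepr*. In CKO lungs the call of *Il6ra* (-0.57, adjusted p = 0.0152) was lost without CKO_PBS replicate 2 (0.0579) or 3 (0.0505) and with only the CKO groups fitted (0.0542), and that of *Ifngr1* (-0.39, adjusted p = 0.00533) with only the CKO groups fitted (0.0504). *Ghr*, the growth hormone receptor, had 76.2, 51.2 and 80.9 CPM in CKO_CRE against 120, 107 and 122 in CKO_PBS, and 56.1, 55.5 and 58.8 CPM in WT_CRE against 116, 118 and 117 in WT_PBS (log2 -0.74 ± 0.14, adjusted p = 0.00174 in CKO; -1.04 ± 0.14, adjusted p = 9.96e-05 in WT).

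Genes known as STAT targets moved by list. The lists were chosen with earlier results of these data known, so their counts are a description and not a test. All 13 tested STAT6 targets rose in both genotypes, with a median log2 change of 4.31 in CKO lungs and 4.68 in WT lungs. *Arg1*, the arginase of alternatively activated macrophages, had 140, 1185 and 240 CPM in CKO_CRE against 3.46, 2.73 and 1.01 in CKO_PBS, and 1340, 1637 and 1038 CPM in WT_CRE against 2.58, 3.12 and 2.71 in WT_PBS. CKO_CRE replicate 2 was at the WT_CRE level and the other 2 were well under it. *Muc5ac*, a gel-forming mucin of goblet cells, had 143, 103 and 156 CPM in CKO_CRE against 3.36, 5.17 and 1.20 in CKO_PBS, and 67.2, 65.2 and 69.1 CPM in WT_CRE against 8.59, 6.70 and 4.36 in WT_PBS. In CKO lungs 12 of the 13 rose without CKO_CRE replicate 2. Of 12 STAT3 targets, which include *Socs3* itself, 10 rose in each genotype, with medians of 0.98 in CKO and 1.74 in WT. *Bcl3*, a nuclear cofactor of NF-kB, had 46.5, 70.8 and 37.5 CPM in CKO_CRE against 20.7, 31.2 and 20.2 in CKO_PBS, and 63.8, 67.8 and 67.4 CPM in WT_CRE against 17.5, 18 and 14.6 in WT_PBS. It rose by log2 1.10 ± 0.22 in CKO lungs (adjusted p = 0.00264) and 1.99 ± 0.22 in WT lungs (adjusted p = 4.16e-05).

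STAT5 targets, among them *Cish* and *Socs2*, moved both ways. Of 10, 6 rose and 4 fell in CKO lungs, 5 and 2 without CKO_CRE replicate 2, and 6 rose and 3 fell in WT lungs. *Pim1*, a survival kinase, had 106, 138 and 94.2 CPM in CKO_CRE against 44.0, 52.1 and 37.8 in CKO_PBS, and 135, 145 and 111 CPM in WT_CRE against 33.4, 36.0 and 29.8 in WT_PBS (log2 1.34 ± 0.16, adjusted p = 0.000182 in CKO; 1.98 ± 0.16, adjusted p = 8.58e-06 in WT). *Bcl2l1*, which opposes cell death, fell by 0.89 on the log2 scale in CKO lungs (adjusted p = 0.000798) and by 0.81 in WT lungs (adjusted p = 0.000516).

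**Figure D3:**
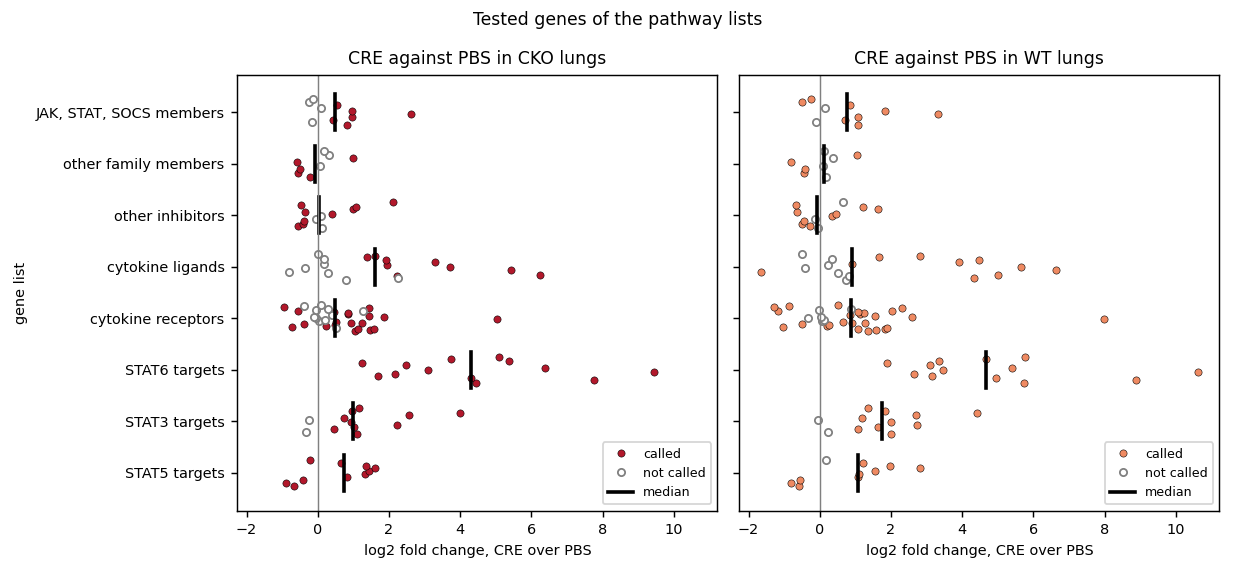
Log2 fold change of CRE over PBS (x axis) for each tested gene of the lists (y axis), CKO lungs left and WT lungs right, with filled points for called genes and a bar at each list's median. Among these pathway lists, which leave out the cell type markers, STAT6 targets lie farthest right, with medians of 4.31 in CKO and 4.68 in WT.

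Of 12 other inhibitors of the pathway, 4 rose and 5 fell in each genotype, where 39.1% of all genes were called in CKO lungs and 57% in WT lungs. *Ptpn2*, a phosphatase that removes phosphate from JAK1, JAK3 and STATs, had 35, 74.7 and 36.2 CPM in CKO_CRE against 22.2, 27.5 and 23.7 in CKO_PBS, and 78.0, 75.4 and 65.8 CPM in WT_CRE against 24.0, 22.5 and 23.7 in WT_PBS. Again CKO_CRE replicate 2 matched WT_CRE and the other 2 did not. *Ptpn2* rose by log2 0.99 ± 0.24 in CKO lungs (adjusted p = 0.00691), by 0.54 (adjusted p = 0.00219) without CKO_CRE replicate 2, and by 1.64 ± 0.24 in WT lungs (adjusted p = 0.00018). *Ptpn6*, the SHP-1 phosphatase of blood cells, rose by 1.07 ± 0.18 and 1.21 ± 0.18 (adjusted p = 0.00125 in CKO and 0.000237 in WT). *Usp18*, which shuts off the type I interferon receptor, had 34.7, 79.2 and 122 CPM in CKO_CRE against 19.9, 20.7 and 14.1 in CKO_PBS, and 30.3, 31.1 and 20.0 CPM in WT_CRE against 16.7, 18.6 and 16.6 in WT_PBS. It rose in CKO lungs (log2 2.11 ± 0.35, adjusted p = 0.00112), and in WT lungs it did not pass (0.65 ± 0.35, adjusted p = 0.132) but was called without CKO_CRE replicate 1 (0.0205) and with only the WT groups fitted (0.00486). *Sh2b3*, the adaptor LNK that restrains JAK2, fell by 0.47 and 0.67 on the log2 scale (adjusted p = 0.00653 in CKO and 0.000396 in WT). *Pim1*, *Il4ra*, *Il2rg*, *Il6ra*, *Bcl3*, *Ptpn6*, *Usp18* and *Sh2b3* share exon bases with another gene, so their values carry that uncertainty.

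Between the genotypes under CRE, *Socs1* and *Cish* had lower means and *Stat5b* a higher mean in CKO lungs, and no difference of the 10 genes was called. The edgeR test called 0 of 10, where 0.916% of all genes were called, 0.549% higher and 0.366% lower. *Socs1* differed by log2 -0.82 ± 0.28 (95% interval -1.43 to -0.22, unadjusted p = 0.0117, adjusted p = 0.168), and 2 of 3 CKO_CRE libraries were below every WT_CRE library while replicate 2 was above WT_CRE replicate 3. *Cish* differed by -0.55 ± 0.18 (-0.95 to -0.15, unadjusted p = 0.0105, adjusted p = 0.162), with all 3 CKO_CRE libraries below all 3 WT_CRE libraries. *Stat5b* differed by 0.27 ± 0.09 (0.07 to 0.48, unadjusted p = 0.0121, adjusted p = 0.169), and every CKO_CRE library was above every WT_CRE library but replicate 2 only just. These were the 3 genes of the 10 with an unadjusted p below 0.05, where 18.5% of all genes had one. The libraries did not overlap for 2 of the 10, *Cish* and *Stat5b*, against 15.1% of all genes. Of the rest, *Jak2* and *Jak3* both differed by -0.21 (SE 0.10 and 0.13), *Stat6* by 0.15 ± 0.09 and *Socs3* by -0.12 ± 0.24, and for *Stat3*, *Stat5a* and *Jak1* the difference was at most 0.06 in size, with adjusted p from 0.282 to 0.983 for these 7. The 95% interval of *Socs3*, from -0.64 to 0.39, holds sizeable differences in both directions.

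The result depended on CKO_CRE replicate 2. Without it, 5 of the 10 were called, where 28.5% of all genes were: *Socs1* (-1.12, adjusted p = 0.00904), *Cish* (-0.59, adjusted p = 0.0444) and *Jak3* (-0.33, adjusted p = 0.0494) lower in CKO_CRE, and *Stat5b* (0.38, adjusted p = 0.00168) and *Stat6* (0.24, adjusted p = 0.0303) higher. In limma-voom with library quality weights, which are meant to give less weight to libraries that stand apart, 6 were called, where 43.8% of all genes were. These were the same 5 (*Socs1* -1.01, *Cish* -0.82, *Jak3* -0.25, *Stat5b* 0.31 and *Stat6* 0.22) and *Jak2* (-0.20, adjusted p = 0.0316). The weights are not given here, so which libraries counted for less is not shown. By limma-voom the *Cish* difference was larger in size than without CKO_CRE replicate 2, and *Cish* was lowest in CKO_CRE replicate 3 (34.6 CPM). Without the low-count filter 1 was called, *Socs1* (-0.81, adjusted p = 0.0452), where 2.14% of all genes were. DESeq2 called 0 of 10, where it called 4.45% of the 17878 genes to which it gave an adjusted p. The leukocyte sum of CKO_CRE was 1694 and 2218 CPM in replicates 1 and 3 against 3242 in replicate 2 and 2584 to 2866 in WT_CRE, and the T cell sum 95.8 and 180 against 185 and 202 to 225. The B cell sum was 81.0, 259 and 150 CPM in CKO_CRE against 323, 419 and 274 in WT_CRE, and the airway epithelium sum 1675, 778 and 1369 against 803, 773 and 775. With all libraries none of the tested markers of any cell type was called between the genotypes under CRE. Without CKO_CRE replicate 2, 5 of 8 leukocyte, 4 of 8 macrophage, 1 of 8 T cell, 7 of 7 B cell, 3 of 5 tested eosinophil and 1 of 6 tested neutrophil markers were called lower in CKO_CRE. In the same setting 5 of 6 tested airway epithelium, 5 of 8 alveolar epithelium and 5 of 8 endothelial markers were called higher. Their part in the differences of the 10 genes was not tested.

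**Figure D4:**
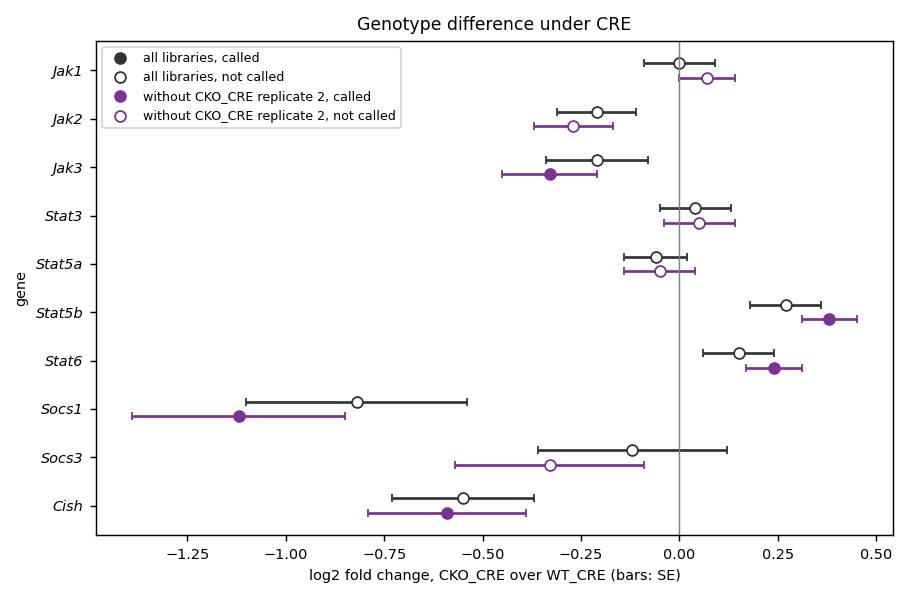
Log2 fold change of CKO_CRE over WT_CRE with its SE (x axis) for each gene (y axis), with all libraries (black) above the same without CKO_CRE replicate 2 (purple) and filled points for called genes. All 10 points are open with all libraries, and *Jak3*, *Stat5b*, *Stat6*, *Socs1* and *Cish* are filled without replicate 2.

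Among the other genes of the pathway under CRE, *Cbl*, *Il13* and *Ccl24* were called, all lower in CKO lungs. *Cbl*, a ubiquitin ligase that tags activated receptors (chromosome 9, 44142976 to 44234049, minus strand), had 87.6, 86.7 and 83.7 CPM in CKO_CRE against 145, 128 and 151 in WT_CRE, and 69.9, 84.2 and 82.3 CPM in CKO_PBS against 141, 144 and 150 in WT_PBS. All 6 CKO libraries were below all 6 WT libraries. The difference was log2 -0.72 ± 0.09 under CRE (adjusted p = 0.00339) and -0.88 ± 0.09 under PBS (adjusted p = 0.000804), and the CRE change of *Cbl* did not pass in either genotype (adjusted p = 0.284 in CKO and 0.728 in WT). With only the CRE groups fitted, the first of these calls was lost (-0.71, adjusted p = 0.0703). *Cbl* lies on the chromosome that carries *Rhoa* (108306129 to 108337934) but far from it. *Cish* is on the same chromosome and much closer, ending 1003345 bases before *Rhoa*.

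*Il13* was lower in CKO_CRE by 2.07 on the log2 scale (SE 0.38, adjusted p = 0.028), with every CKO_CRE library below every WT_CRE library. Its call was lost without any 1 of CKO_CRE replicates 1 and 3, the 3 WT_CRE libraries and the 3 WT_PBS libraries (adjusted p from 0.0516 to 0.11), and with only the CRE groups fitted (0.0823). *Ccl24*, an eosinophil chemokine and STAT6 target, had 67.8, 217 and 66.4 CPM in CKO_CRE against 671, 612 and 415 in WT_CRE (log2 -2.27 ± 0.40, adjusted p = 0.0234). That call was lost without CKO_CRE replicate 3 (0.0849) or WT_CRE replicate 1 (0.103) or 2 (0.0626), and with only the CRE groups fitted (0.222). Higher in CKO_CRE without passing were *Usp18* (1.53 ± 0.35, adjusted p = 0.0625) and *Stat2* (0.73 ± 0.18, adjusted p = 0.0787), and lower without passing was *Socs2* (-0.34 ± 0.08, adjusted p = 0.0653). In none of these 3 did the CRE groups overlap, and all 3 were called by DESeq2 (adjusted p = 0.000537, 0.00731 and 0.00356) and without CKO_CRE replicate 2 (0.0102, 0.00473 and 0.0122). Over the lists, 1 of 13 STAT6 targets, 1 of 17 ligands, 1 of 12 other inhibitors and 0 of the 31 receptors and of the STAT3 and STAT5 targets were called. With CKO_CRE replicate 2 left out, where 28.5% of all genes were called, the counts were 10 of 13 STAT6 targets (9 lower), 4 of 12 STAT3 targets (4 lower), 4 of 10 STAT5 targets (3 lower), 1 ligand (lower), 6 other inhibitors (2 lower) and 14 receptors (10 lower).

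Under PBS the 10 genes were called in 0 cases by edgeR, DESeq2 and limma-voom, where edgeR called 0.109% of all genes (0.0401% higher and 0.0687% lower), DESeq2 0.49% and limma-voom 0.836%. Without CKO_CRE replicate 2 it was again 0, with 0.296% of all genes called. *Socs3* had 62.8, 118 and 60.3 CPM in CKO_PBS against 52.3, 46.5 and 42.4 in WT_PBS. Its libraries did not overlap, and CKO_PBS replicate 2 was far above the other libraries. The difference was log2 0.77 ± 0.24 (95% interval 0.24 to 1.30, unadjusted p = 0.00804, adjusted p = 0.516), and 0.39 (adjusted p = 0.953) without CKO_PBS replicate 2. The neutrophil markers, 6 of 7 of them tested and 0 called, summed to 143, 276 and 67.5 CPM in CKO_PBS against 63.3, 43.1 and 42.9 in WT_PBS, highest in that same replicate, and their part was not tested. *Stat5a*, at 22.7, 22 and 23.5 CPM in CKO_PBS against 20.1, 19.7 and 17.9 in WT_PBS, was also separate (log2 0.24 ± 0.08, unadjusted p = 0.0128, adjusted p = 0.628). These 2 of the 10 were those with an unadjusted p below 0.05, against 5.32% of all genes, and 15.2% of all genes had libraries that did not overlap. For the other 8 the difference ran from -0.30 (*Cish*, 95% interval -0.71 to 0.10) to 0.09 (*Stat3*), each with an adjusted p of 1. Without CKO_PBS replicate 2 the *Cish* difference was -0.55 (adjusted p = 0.534).

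The difference between the CRE responses, CKO minus WT, was not called for any of the 10 by edgeR or DESeq2, where edgeR called 0.0458% of all genes (0.0343% higher and 0.0114% lower) and DESeq2 0.643%. The median over the 10 was -0.18, against 0.01 over all genes. *Socs3* (-0.89 ± 0.34, 95% interval -1.63 to -0.15, unadjusted p = 0.0219, adjusted p = 0.423) and *Stat5a* (-0.31 ± 0.12, unadjusted p = 0.0216, adjusted p = 0.422) had an unadjusted p below 0.05, as did 10.3% of all genes. The *Socs3* value was -0.51 (adjusted p = 0.621) without CKO_PBS replicate 2 and -1.10 (adjusted p = 0.0394) without CKO_CRE replicate 2. *Socs1* differed by -0.70 ± 0.42 (-1.62 to 0.22, adjusted p = 0.563). *Cish* differed by -0.25 (adjusted p = 0.719), and by -0.00 (adjusted p = 1) without CKO_PBS replicate 2. Without CKO_CRE replicate 2, *Stat5b* was called as well (0.36, adjusted p = 0.019), making 2 of 10, where 14.8% of all genes were called. By limma-voom *Socs3* (-0.99, adjusted p = 0.0104) and *Stat5b* (0.28, adjusted p = 0.0202) were called, where 25% of all genes were.

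The genes whose profiles over the 12 libraries were most like each of the 10 were found by the root mean square difference of log2 CPM, each gene taken relative to its WT_PBS mean. *Jak3* was nearest to *Relb*, an NF-kB subunit (0.0712), and *Socs3* to *Bcl3* (0.183). *Socs1* was nearest to the complement gene *C1qa* (0.248) and then *Dok2* (0.262), and *Cish* to *Nme7* (0.187). *Jak2* was nearest to *Grk2* (0.072), *Stat5a* to *B4galnt1* (0.102), *Stat3* to *Slc35b4* (0.0678), *Stat5b* to *Cyhr1* (0.0473), *Stat6* to *Hmgxb4* (0.0433) and *Jak1* to *Btbd9* (0.0487). Genes that change little have small values by this measure whatever their neighbours, so the values rank neighbours of 1 gene and not the genes themselves.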

How the data were processed

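The deposited table holds raw read counts per gene, made by the authors for 12 whole-lung libraries, and no column was left out. Reads went through fastp and STAR on mm10, per the submitters' processing notes. Which program and annotation counted them, and with what strand setting, is not stated there or in the labels' protocols, which name a NEBNext kit. Symbols, positions and exon lengths came from GENCODE M21 (54495 identifiers matched) and promoters from RefSeq.

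One edgeR 4.0.16 model (R 4.3.3; TMM, filterByExpr) with 4 group means gave all contrasts through quasi-likelihood F tests. P-values were Benjamini-Hochberg adjusted over the 17473 genes kept, and "called" means an adjusted p under 0.05. In the alternatives, shares of all genes are of the genes tested in that setting. For DESeq2 they are of the genes given an adjusted p, from 17878 to 22262 by comparison. The coefficient of variation between libraries that edgeR terms biological came to 17.4%. Errors of log2 fold changes are SE, other ± values SD. The code was tested on simulated counts. Alternatives were DESeq2 size factors, DESeq2 1.42.0, limma-voom (limma 3.58.1) with quality weights, no low-count filter and only the groups compared. Further alternatives were a replicate block, sex from Y-linked counts set against *Xist* counts, and leaving out each library. Replicate numbers were not taken to pair libraries, since most same-numbered pairs correlated at 0.1 or less.

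All 10 genes are named. List genes were eligible by size of change, up to 4 per direction among called genes reaching 1 CPM on average in a group, and some of these are described. Members and lists were chosen with earlier results of these data known. Lists share genes, and none was tested as a set. Some results of the family and its targets are not reported here.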

Additional observations from a re-analysis of the deposited data

How the results depend on the processing

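Across the alternatives, 940 values of the 10 genes were recomputed. None reversed a call, 8 lost one and 21 gained one, and 12 of the gains were in the comparison of the genotypes under CRE. There 0 of the 10 were called by edgeR (0.916% of all genes), 6 by limma-voom (43.8%) and 1 without the low-count filter (2.14%). With 1 library left out it was 0 to 5. For the difference between the CRE responses 2 were called by limma-voom (25% of all genes) and 0 to 2 when 1 library was left out. In both, the highest leave-one-out value was without CKO_CRE replicate 2, where 28.5% and 14.8% of all genes were called. The members' counts under CRE against PBS stayed within 5 to 7 in CKO lungs and 7 to 9 in WT lungs in every alternative. Over all genes the called ran from 3812 to 8012 in CKO lungs and from 7934 to 12076 in WT lungs.

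Counts over all genes moved as well. Fitting only the groups compared called 3812 genes for CRE in CKO lungs (6830 with all groups), 29 between the genotypes under CRE (160) and 74 under PBS (19). DESeq2 called 796 between the genotypes under CRE, 106 under PBS and 119 for the difference between responses (8 by edgeR). The same 3 counts were 7645, 146 and 4371 by limma-voom and 691, 89 and 81 without the low-count filter. Leaving out 1 library gave 38 to 5112 under CRE, 12 to 53 under PBS and 0 to 2660 for the difference between responses, each highest without CKO_CRE replicate 2. Sex as a covariate left 2 for that difference. The causes were not tested.

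With the replicate number as a block, that difference called 0 genes. Among the 10 genes the block changed 1 call, adding *Stat5b* in CKO lungs (adjusted p = 0.0463). Same-numbered libraries deviated together weakly at most, with correlations from -0.0334 to 0.176 over 18 pairs, 4 of them over 0.1, and 8 of 12 libraries correlated best with their own number.

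At 3 libraries a group, *Socs1* between the genotypes under CRE had a 95% interval from -1.43 to -0.22 by edgeR. Its SE was 0.28 there, 0.18 with the replicate block and 0.16 by limma-voom.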
